A study of Mus musculus with 23 samples.

Results

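TRAV14 is a family of variable (V) segments of the T cell receptor (TCR) alpha chain, abbreviated TRA, and its transcripts were followed here through a mouse melanoma treated with 2 kinase inhibitors. Its members were all TRA entries whose V name carries the family number 14, joint names of several gene copies included. An entry is a V name, a joining (J) segment and the amino acid sequence of the CDR3, the loop in which T cells differ most. Of 29047 TRA entries, 4513 belonged to TRAV14, and they held 16.2% of all TRA counts under 11 V names. The family was chosen by its values in 2 contrasts of the same counts: TRAV14D-2 had been higher in BGB-283 than in control libraries, and TRAV14-2V14N-2 lower in combination than in BGB-283 libraries. Both contrasts are therefore given below as values with no test. The same control, combination and BGB-283 libraries enter other contrasts, and tests that use them are not independent of the choice.

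The tumours came from NIL, a syngeneic melanoma line with an Nras Q61R mutation that had been irradiated with ultraviolet light to raise its number of mutations. Libraries of TCR transcripts were prepared under 4 treatments, each at times labelled D11 and D4. The treatments were trametinib, which inhibits the kinase MEK, together with BGB-283, which inhibits RAF kinases (called combination), either drug alone, and no drug (called control). Each group held 3 libraries, except control D11 with 2. All groups share the irradiated tumour line, and the labels give neither the mouse strain nor the event from which days are counted. The deepest library, combination D4 replicate 2, had 524431 TRA counts and the shallowest, control D11 replicate 1, had 37504. The labels do not say whether libraries of 1 group were taken from different mice, and all p-values below measure the spread among these libraries, which may be technical. A larger share of counts can mean more cells with that receptor or more receptor RNA per cell, and these cannot be told apart in bulk RNA.

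As background, a developing T cell joins a V segment to a J segment to make its alpha chain, and the CDR3 spans that junction. Daughter cells of a T cell that has divided carry the same receptor, so an expanded clone appears as a V, J and CDR3 combination with many counts. In mice the TRAV region was duplicated during evolution, so that most families have several near-identical copies, which names mark with the letters D and N. The suffix DV marks a segment that can also join the delta chain. V segments encode the CDR1 and CDR2 loops, which mostly touch the MHC molecule, and the start of the CDR3, which meets the peptide.

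The reference table of mouse genes (RefSeq, GRCm38.p6) lists 9 TRAV14 genes on chromosome 14, in the order Trav14d-1, Trav14d-2, Trav14d-3-dv8, Trav14n-1, Trav14n-2, Trav14n-3, Trav14-1, Trav14-2 and Trav14-3. Of the 11 deposited names, only TRAV14-3, TRAV14D-1 and TRAV14D-2 stand for 1 gene. The other 8 are joint names of 2 to 5 copies that were not told apart, and the Trav14n genes appear in joint names alone. Coordinates are not printed, since the build named for these mouse libraries, GRCh38, is a human one.

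Entries that shared J segment and CDR3 were merged over the TRAV14 names into 3329 clonotypes, here called clones. The 5 that reached 5% of TRA counts in any library are named here by their J segment: a TRAJ42 clone with a CDR3 of 14 residues, a TRAJ13 clone of 13, a TRAJ17 clone of 14, a TRAJ27 clone of 13 and a TRAJ37 clone of 13 residues. The 3 clones found in most libraries were 2 TRAJ22 clones, of 14 and 12 residues, and a second TRAJ13 clone of 13 residues. The CDR3 of all 8 began with cysteine, alanine and alanine at the V end of the loop. Among all TRAV14 clonotypes, 92.9% ± 2.72 of those in a library began this way, against 26.6% ± 3.55 of clonotypes with other TRAV families (SD, n = 23 libraries). The same start with a serine after it was found in 62.2% ± 4.75 of TRAV14 clonotypes and 14.7% ± 2.58 of the others. The first residues of the loop are encoded by the V segment itself.

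TRAV14 held 14.8% ± 12.5 of TRA counts (SD, n = 23 libraries), the second highest mean of 21 TRAV families after TRAV7 with 27.6% ± 11.4. The combination libraries had 9.41, 5.58 and 8.63% at D11 and 19.5, 7.47 and 13.1% at D4. The trametinib libraries had 9.11, 11.9 and 10.6% at D11 and 11.9, 11.1 and 9.80% at D4. The BGB-283 libraries spread most, with 6.30, 21.7 and 28.7% at D11 and 24.2, 65.2 and 14.04% at D4. The control libraries had 12.9 and 7.44% at D11 and 15.5, 8.97 and 7.76% at D4. Of the BGB-283 libraries, 4 lay above all other libraries, and BGB-283 D11 replicate 1 lay below all controls. TRAV14 ranked first among families in 3 libraries, all of them BGB-283. Counting error is small beside this spread: in the shallowest library, control D11 replicate 1, the 95% Wilson interval of its 12.9% was 12.6 to 13.2%, which covers counting error only. The interval takes every count as an independent draw, and is too narrow if several counts come from 1 molecule.

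**Figure D1:**
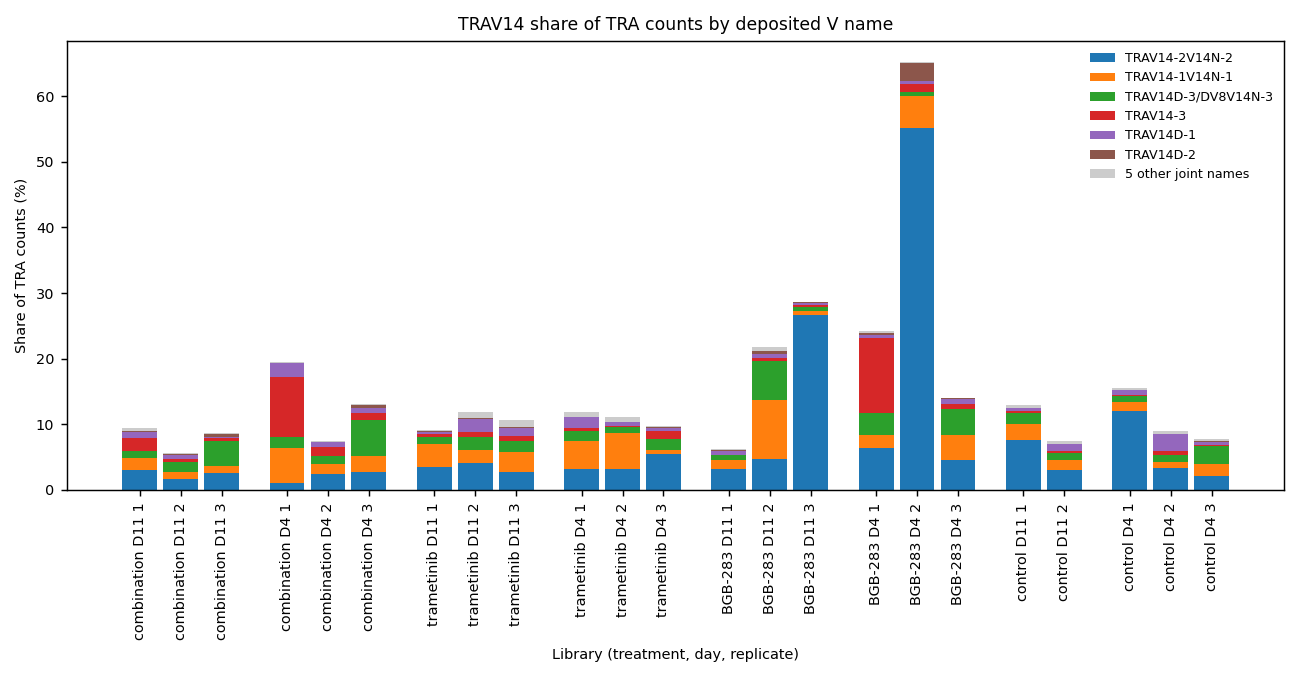
Share of TRA counts held by each TRAV14 name in each of the 23 libraries, in percent, with groups in the order combination, trametinib, BGB-283 and control and D11 left of D4. BGB-283 D4 replicate 2 stands at 65.2%, with TRAV14-2V14N-2 at 55.1% of TRA counts, while the trametinib libraries lie between 9.11 and 11.9%.

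The edgeR quasi-likelihood test on counts summed per family called no difference for TRAV14 in any contrast that had not been used to pick the family. The combination libraries averaged 10.6% ± 5.01 and the control libraries 10.5% ± 3.53 (SD, n = 6 and 5), a fitted log2 difference of -0.03 (SE 0.47, adjusted p = 0.999). The trametinib libraries averaged 10.7% ± 1.13 (n = 6), a log2 difference from the same control libraries of 0.04 (SE 0.47, adjusted p = 0.983). Combination differed from trametinib by -0.07 on the log2 scale (SE 0.44, adjusted p = 0.956). The standard errors are large beside these differences, so a moderate change in either direction was not detectable. The share of families called at an adjusted p below 0.05 was 0% in each of these 3 contrasts. At D11 the mean over all treatments was 12.0% ± 7.05 (n = 11) and at D4 17.4% ± 15.8 (n = 12), a log2 difference of -0.44 (SE 0.32, adjusted p = 0.538), in a contrast where 9.52% of families were called. BGB-283 libraries averaged 26.7% ± 20.5 (n = 6). The fitted log2 difference was 1.29 for BGB-283 over control and -1.32 for combination over BGB-283, both given without a test. The control libraries enter several of these contrasts, so the values are not independent of each other. D11 over D4 also includes the BGB-283 libraries, whose values were used to pick the family.

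Counting each clonotype once took away most of the spread between libraries. TRAV14 made up 11.3, 14.01 and 14.7% of TRA clonotypes as the lowest, median and highest of the combination libraries, 12.7, 15.6 and 16.1% of the trametinib libraries, 15.4, 17.1 and 21.1% of the BGB-283 libraries and 12.1, 15.3 and 16.1% of the control libraries. In the edgeR fit over 15 families, the log2 difference was -0.15 for combination over control (SE 0.11, adjusted p = 0.379) and 0.02 for trametinib over control (SE 0.12, adjusted p = 0.931). It was -0.17 for combination over trametinib (SE 0.09, adjusted p = 0.386) and -0.08 for D11 over D4 (SE 0.08, adjusted p = 0.482). The share of families called was 6.67, 13.3, 6.67 and 6.67% in these contrasts. The untested values were 0.25 for BGB-283 over control and -0.39 for combination over BGB-283. Large clones came with clonotypes of the same J segment and length that differ from them by 1 residue, such as 44 in BGB-283 D4 replicate 2 that together held 1.69% of the counts of its largest clone. With near copies of a clone at least 20 times their counts dropped, an alternative chosen after seeing the data, BGB-283 libraries lay between 15.7 and 18.3%, combination libraries between 12.2 and 15.0% and control libraries between 13.0 and 17.8%. Without these near copies, both combination contrasts passed the threshold, at -0.25 against control (adjusted p = 0.0427) and -0.20 against trametinib (adjusted p = 0.0309). The share of all families called in this setting was not recorded, so whether TRAV14 stands out among them cannot be read from these calls. The combination libraries are those in which a TRAV14 name had been found low against BGB-283, so these calls are no independent evidence.

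The spread in counts followed the largest clones. In combination libraries the largest TRAV14 clone held 0.695 to 8.25% of TRA counts, in trametinib libraries 0.802 to 3.27%, in BGB-283 libraries 0.652 to 49.7% and in control libraries 0.504 to 4.45%. Of the 5 clones above 5%, 4 were found at that level in BGB-283 libraries and the other in a combination library. Clones at 5% or more were then taken out of the TRAV14 counts of each library but left in its TRA total. The values are therefore too low as shares of the remaining TRA counts where such a clone is large, most so in BGB-283 D4 replicate 2. On this measure the BGB-283 libraries had 6.30, 16.2 and 5.66% at D11 and 13.9, 15.4 and 14.04% at D4. The combination library with such a clone, D4 replicate 1, then had 11.2%. The group means on this measure were 9.23% ± 2.67 in combination, 10.7% ± 1.13 in trametinib, 11.9% ± 4.69 in BGB-283 and 10.5% ± 3.53 in control. The ranges of all 4 treatments overlap on it, but the BGB-283 mean is lowered most by the full total. In BGB-283 D4 replicate 2, the 15.4% is a share of a total of which the removed clone held 49.7%. The overlap therefore does not show equal shares. Clones of TRAV14 at 1% or more of a library's TRA counts numbered 9 in combination (10% of all TRA clones of that size), 4 in trametinib (4.82%), 18 in BGB-283 (21.4%) and 9 in control libraries (11.1%).

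**Figure D2:**
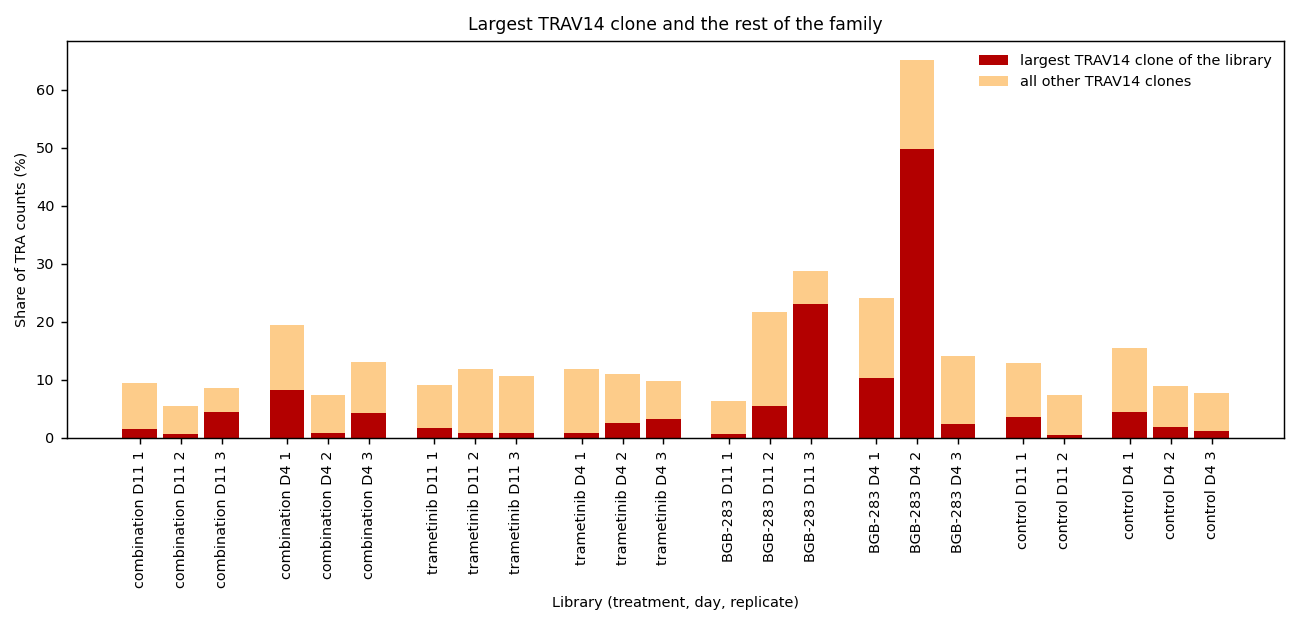
Share of TRA counts in each library held by its largest TRAV14 clone and by all its other TRAV14 clones, in percent. The largest clone reaches 49.7% in BGB-283 D4 replicate 2 and 23.01% in BGB-283 D11 replicate 3. The rest of the family stays between 4.10 and 16.2% in every library, as a share of a TRA total that includes the largest clone.

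The TRAJ42 clone was the largest TRA clone of BGB-283 D4 replicate 2, with 178448 counts or 49.7% of TRA. It was also listed in 7 further libraries: at 0.0748% and 0.289% in combination D4 replicates 1 and 2, at 0.0110% and 0.848% in trametinib D11 replicates 1 and 2, at 0.0312% in trametinib D4 replicate 1, at 2.43% in BGB-283 D11 replicate 3 and at 1.16% in control D4 replicate 3. It thus occurred under every treatment, and exceeded 5% in 1 library. The largest beta-chain clone of BGB-283 D4 replicate 2 used TRBV16 and TRBJ2-3 with a CDR3 of 13 residues and held 43.6% of TRB counts. That beta clone was listed in 1 other library, BGB-283 D11 replicate 3, at 2.34% of TRB counts, beside 2.43% for the alpha clone. In the other 6 libraries with the alpha clone the beta clone was listed at 0. Alpha and beta chains were sequenced apart, so which chains share a cell was not measured.

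The other 4 large clones were listed in fewer libraries. The TRAJ13 clone held 64776 counts or 23.01% of TRA in BGB-283 D11 replicate 3, where it was the largest TRA clone, and was listed at 0 in the other 22 libraries. The TRAJ17 clone held 10.2% in BGB-283 D4 replicate 1, also the largest TRA clone there, and was listed in no other library. The TRAJ27 clone held 8.25% in combination D4 replicate 1, the second largest, and was found in that library alone. The TRAJ37 clone held 5.54% in BGB-283 D11 replicate 2, where it ranked behind 3 other TRA clones, and 0.0114 to 0.0404% in 3 combination and trametinib libraries. No large clone other than the TRAJ42 clone was listed in a control library. These clones were named for a high share in a BGB-283 or combination library. Of all TRAV14 clonotypes, 80.3% were listed in 1 library only, so absence from control libraries is common.

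The beta clones of highest share in those libraries were not the same from library to library. BGB-283 D11 replicate 3 had 2 TRBV16 clones of similar size, at 12.6% of TRB counts for a CDR3 of 17 residues and 11.5% for a CDR3 of 13 residues. BGB-283 D4 replicate 1 had a TRBV19 clone at 8.83% and a TRBV23 clone at 8.16%. Combination D4 replicate 1 had a TRBV16 clone at 15.0% and a TRBV12-2 clone at 8.46%. BGB-283 D11 replicate 2 had a TRBV12-1 clone at 18.3% and a TRBV16 clone at 7.02%. In 3 of the 5 libraries with a large TRAV14 clone the top beta clone used TRBV16, as it did in 6 of the 18 other libraries. TRBV16 held a median of 22.1% of TRB counts in these 5 libraries and 15.6% in the 18 others, with ranges that overlap. Where beta shares are close, as in BGB-283 D11 replicate 3, the shares do not single out a partner.

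TRAV14 clones were shared between libraries at low counts as well. Of 3329 TRAV14 clonotypes, 655 (19.7%) were listed in 2 or more libraries, against 2805 of 21967 (12.8%) clonotypes of other families. In 5 or more libraries these were 2.70% and 1.03%. The 14-residue TRAJ22 clone was listed in all 23 libraries, while no clonotype of another family was listed in more than 21. Its share of TRA counts ran from 0.00426% in BGB-283 D11 replicate 3 to 1.14% in control D11 replicate 1. The 12-residue TRAJ22 clone was listed in 15 libraries and the second TRAJ13 clone in 14, with highest shares of 0.204 and 0.117%. Clonotypes are counted by amino acid sequence, so different DNA rearrangements with the same translation count as 1. Both TRAJ22 clones were also listed under other TRAV families, with 1882 counts for the 14-residue clone and 3432 for the 12-residue clone.

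Among the 11 names, with counts pooled over libraries, TRAV14-2V14N-2 held 50.6% of the family's counts, TRAV14-1V14N-1 16.8%, TRAV14D-3/DV8V14N-3 12.9%, TRAV14-3 10.9%, TRAV14D-1 5.16% and TRAV14D-2 2.01%. The other 5, all joint names, held 0.716% or less each. Of 16309 TRAV14D-2 counts, 9772 came from BGB-283 D4 replicate 2, and without that library TRAV14D-2 held 1.13% and TRAV14-2V14N-2 36.9% of the family. Averaged over libraries, TRAV14D-2 held 1.29% of the family, below the joint names TRAV14-3V14D-2, with 1.43%, and TRAV14-1V14-2V14N-1V14N-2, which was higher still. The 5 least counted names stayed at or below 0.548% of TRA counts in every library. Of the 11 names, 7 were listed above 0 in all 23 libraries, TRAV14D-2 in 21 and 3 rare joint names in 20, 15 and 10.

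TRAV14-2V14N-2, the joint name of Trav14-2 and Trav14n-2, carried the highest shares. The combination libraries had 3.05, 1.63 and 2.56% of TRA counts at D11 and 1.04, 2.44 and 2.69% at D4. The trametinib libraries had 3.52, 4.12 and 2.72% at D11 and 3.17, 3.11 and 5.48% at D4. In 2 BGB-283 libraries it reached values above all others, with 3.12, 4.78 and 26.6% at D11 and 6.45, 55.1 and 4.58% at D4. The control libraries had 7.67 and 3.07% at D11 and 12.1, 3.29 and 2.18% at D4. The 2 highest control values came from the shallowest control libraries, D11 replicate 1 and D4 replicate 1. All 6 BGB-283 libraries lay above all 6 combination libraries, which is the pattern the name was picked for. The TRAJ42 clone made up 84.1% of the name in BGB-283 D4 replicate 2, and the TRAJ13 clone 86.6% of it in BGB-283 D11 replicate 3. The fitted log2 difference was -1.33 for combination over control, given without a test since the name was picked for being low in combination, and -0.61 for trametinib over control (SE 0.67, adjusted p = 0.766).

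TRAV14-3, a name of 1 gene, had a high value in 1 library of combination and 1 of BGB-283. The combination libraries had 2.02, 0.414 and 0.406% at D11 and 9.05, 1.32 and 1.08% at D4. The trametinib libraries had 0.464, 0.755 and 0.809% at D11 and 0.499, 0.252 and 1.22% at D4. The BGB-283 libraries had 0.0973, 0.403 and 0.220% at D11 and 11.4, 1.30 and 0.692% at D4. The control libraries had 0.253 and 0.302% at D11 and 0.131, 0.520 and 0.247% at D4, and all combination libraries but 2 lay above them. The TRAJ27 clone made up 91.2% of the name in combination D4 replicate 1, the TRAJ17 clone 89.9% of it in BGB-283 D4 replicate 1 and the TRAJ42 clone 57.9% in BGB-283 D4 replicate 2. The fitted log2 difference was 2.72 for combination over control (SE 0.92, adjusted p = 0.161) and -1.57 for D11 over D4 (SE 0.59, adjusted p = 0.213). DESeq2 passed both, with adjusted p = 0.00259 and 0.0135.

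TRAV14-1V14N-1 and TRAV14D-3/DV8V14N-3 varied between libraries but did not exceed 8.90 and 5.96% of TRA counts. TRAV14-1V14N-1 held 1.12 to 5.38% in combination, 0.631 to 5.57% in trametinib, 0.735 to 8.90% in BGB-283 and 1.01 to 2.37% in control libraries. TRAV14D-3/DV8V14N-3 held 1.03 to 5.58, 0.833 to 2.03, 0.567 to 5.96 and 0.847 to 2.70% in the same order. The highest value of both was in BGB-283 D11 replicate 2. There the TRAJ37 clone made up 84.2% of TRAV14D-3/DV8V14N-3. TRAV14D-1 held 0.223 to 2.22% in combination, 0.324 to 2.03% in trametinib, 0.390 to 0.798% in BGB-283 and 0.367 to 2.63% in control libraries, and the 4 ranges overlap.

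**Figure D3:**
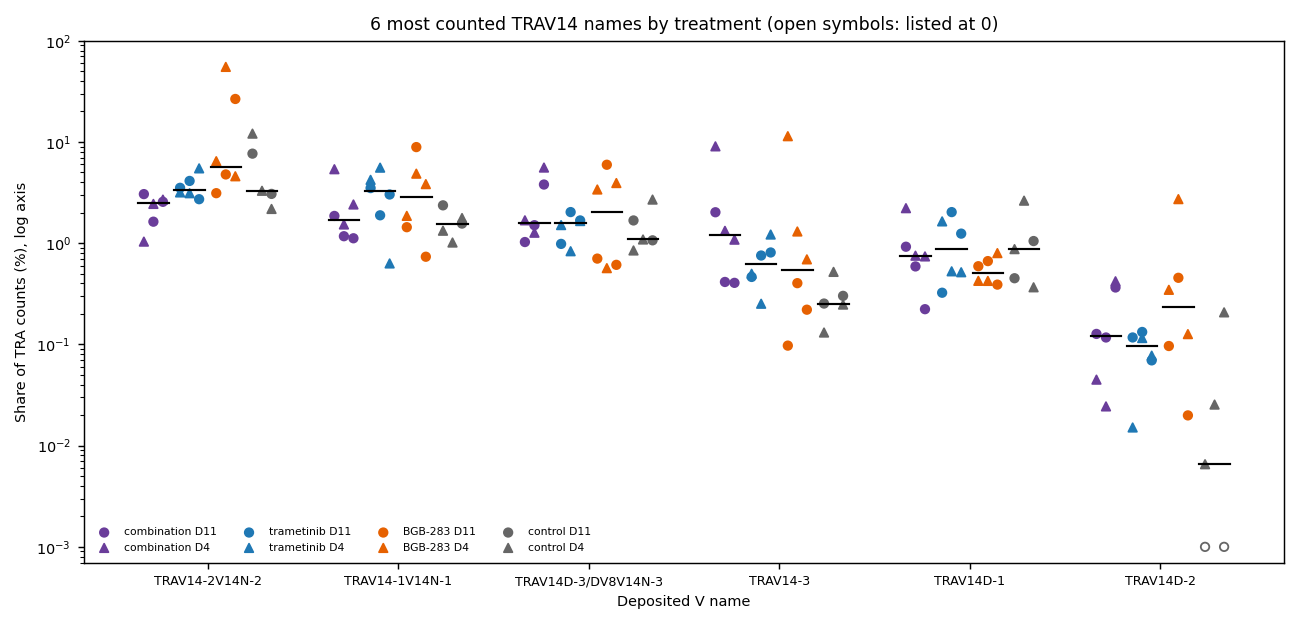
Share of TRA counts in percent on a log axis for the 6 most counted TRAV14 names, with a point for each library, circles for D11, triangles for D4, and a black line at the median of each treatment. Open symbols drawn at the lower edge are the 2 control D11 libraries, where TRAV14D-2 was listed at 0.

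In the edgeR fit over all 118 TRAV names that passed the filter on low counts, all 11 TRAV14 names among them, 0% of names were called in each of the 4 contrasts not used to pick the family. At an unadjusted p below 0.05 there were 16 names for combination over control, 15 for trametinib over control, 6 for combination over trametinib and 12 for D11 over D4, of which 2, 2, 3 and 3 were TRAV14 names. DESeq2, fitted without that filter, called 13, 11, 5 and 12 of 143 names, of which 2, 2, 2 and 3 were TRAV14 names. TRAV14D-2, picked for its low control values, was among these in both contrasts with control and in D11 over D4. In those contrasts the counts of TRAV14 names are therefore no independent evidence. The median log2 difference of the 11 names was -0.71 for combination over control beside 0.21 for all 118, and 0.31 beside 0.59 for trametinib over control. For combination over trametinib it was -0.29 beside -0.64, and for D11 over D4 -0.22 beside 0.20. Whether the contrasts differed between D11 and D4 was tested as an interaction, D11 minus D4, with edgeR. None of the TRAV14 names and neither family measure passed for trametinib over control, combination over control or combination over trametinib, where 1.69, 0 and 0% of names, 4.76, 4.76 and 0% of families by counts and 6.67, 0 and 0% of families by clonotypes were called. The interaction for family counts was -0.68 on the log2 scale for combination over control (SE 0.93, adjusted p = 0.770). In the contrasts used to pick the family, 1.69% of names were called for BGB-283 over control and 0.847% for combination over BGB-283. Each of these counts includes the TRAV14 name that the family was picked for.

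TRAV14D-2, the name of 1 gene behind the choice of the family, had low counts and a wide spread. The combination libraries had 0.127, 0.117 and 0.365% of TRA counts at D11 and 0.0449, 0.0244 and 0.420% at D4. The trametinib libraries had 0.117, 0.133 and 0.0695% at D11 and 0.0151, 0.115 and 0.0774% at D4. The BGB-283 libraries had 0.0964, 0.455 and 0.0199% at D11 and 0.346, 2.72 and 0.126% at D4. Both control D11 libraries were listed at 0, and the control D4 libraries had 0.00655, 0.0254 and 0.207%. Control D4 replicate 3 thus lay above all 6 trametinib libraries and within the ranges of the combination and BGB-283 libraries, and the other 4 controls lay at 0.0254% or less. Since the name was picked for being low in these control libraries, its contrasts with control are given without a test. The fitted log2 differences were 6.41 for combination and 5.33 for trametinib. The fit averages the log2 differences of both days, so these sizes rest largely on the control D11 libraries listed at 0. Mean shares over both days were 0.183% in combination and 0.0879% in trametinib, against 0.0479% in control libraries. Over both days, edgeR gave adjusted p = 0.720 for combination over trametinib and 0.213 for D11 over D4, and DESeq2 passed D11 over D4 with adjusted p = 0.00898. The D11 over D4 contrast includes the BGB-283 and control libraries that the name was picked for. Among them are BGB-283 D4 replicate 2 at 2.72% and both control D11 libraries at 0, so this call is no independent evidence.

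Most TRAV14D-2 counts belonged to clones that had more counts under another TRAV14 name in the same library. In BGB-283 D4 replicate 2, the TRAJ42 clone had 166287 counts under TRAV14-2V14N-2, 9267 under TRAV14D-2, 2710 under TRAV14-3 and 184 under TRAV14-3V14D-2. Those 9267 counts were 94.8% of TRAV14D-2 in that library. In BGB-283 D11 replicate 2, the TRAJ37 clone had 7509 counts under TRAV14D-3/DV8V14N-3 and 604 under TRAV14D-2, which were 88.7% of TRAV14D-2 there. Over all libraries, 90.3% of TRAV14D-2 counts had such a larger copy, against 4.69% of all TRAV14 counts. Without BGB-283 D4 replicate 2 these shares were 78.2% and 4.32%. Among the other names the share was 41.2% for the joint name TRAV14-3V14D-2 and 11.8% or less for the remaining 9. Counted by entry, the same held for 35.6% of TRAV14D-2 and 9.98% of all TRAV14 entries. Only 4.52% of TRAV14D-2 entries shared J and CDR3 with an entry of another family, beside 10.3% over all TRAV14. Whether these counts come from the assignment of reads to near-identical genes was not tested.

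Placing every clone under its most counted name brought TRAV14D-2 to 0.00989 to 0.129% in combination libraries, 0 to 0.111% in trametinib libraries, 0 to 0.0446% in BGB-283 libraries and 0 to 0.0254% in control libraries. The BGB-283 mean was then 0.0262% ± 0.0190 (n = 6), against 0.628% ± 1.04 as deposited. The control mean was 0.00870% ± 0.0122 (n = 5), against 0.0479% ± 0.0897 as deposited. Trametinib, at 0.0672% ± 0.0406, then had the highest mean, and combination had 0.0384% ± 0.0455. Both control D11 libraries were at 0 either way, and they had 37504 and 127261 TRA counts, beside a mean of 218128 over all 23 libraries.

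**Figure D4:**
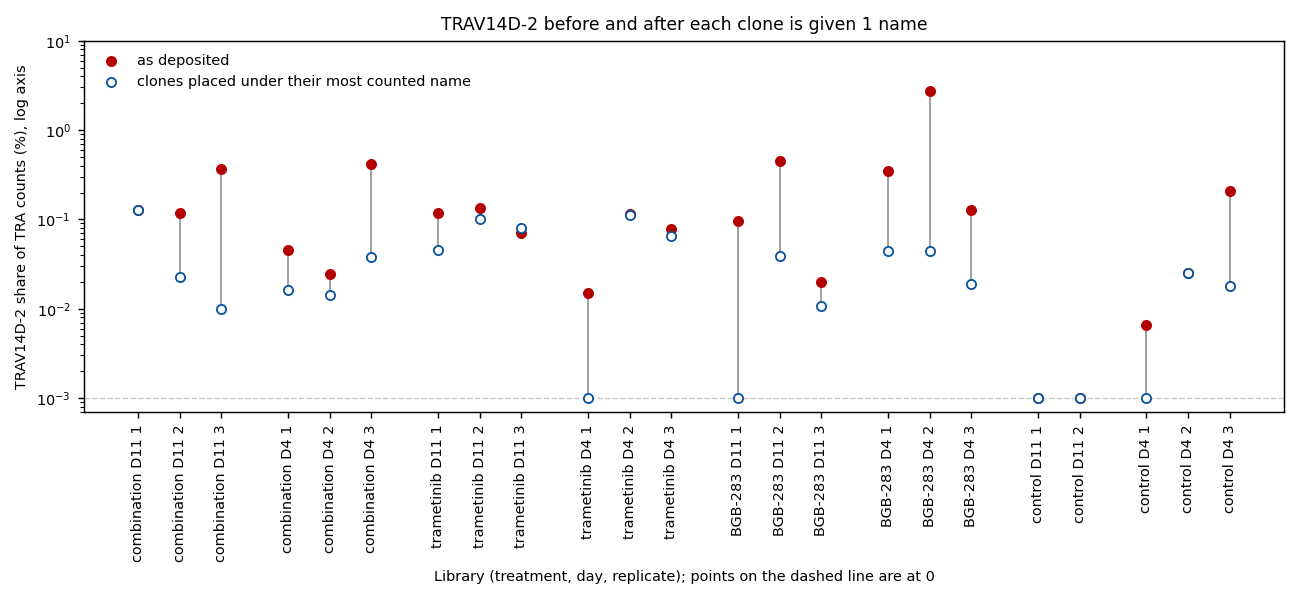
TRAV14D-2 share of TRA counts in each library, in percent on a log axis, as deposited and after each clone was placed under the TRAV14 name with most of its counts. Points on the dashed line are at 0. BGB-283 D4 replicate 2 stands at 2.72% as deposited and at 0.0446% after the placement.

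The J partners of TRAV14 were compared with those of all other TRAV segments in the same libraries, each clonotype counted once. TRAJ22 was the most used, in 8.53% ± 2.84 of TRAV14 clonotypes and 7.68% ± 1.72 of the others, followed by TRAJ26 with 6.32% and 5.56% and TRAJ23 with 5.90% and 5.45%. Of 41 TRAJ segments, 15 passed the filter on low counts and 2 of these (13.3%) were called by edgeR with the library as a block. TRAJ49 was used more, in 4.15% ± 2.06 of TRAV14 and 2.92% ± 1.14 of other clonotypes (log2 difference 0.65, SE 0.18, adjusted p = 0.00411), and was higher in 18 of 23 libraries. TRAJ9 was used less, in 2.78% ± 1.39 and 4.38% ± 1.71 (log2 difference -0.59, SE 0.18, adjusted p = 0.0111), and higher in 5 of 23. TRAJ9 no longer passed with DESeq2 (adjusted p = 0.0662) or with near copies dropped (adjusted p = 0.0912).

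Without the filter on low counts, 9 of 41 TRAJ segments (22%) were called, 4 used more and 5 used less by TRAV14. Those used more were TRAJ58 (log2 difference 1.24, SE 0.30, adjusted p = 0.00172), TRAJ52 (1.05, SE 0.26, adjusted p = 0.00173), TRAJ53 (0.88, SE 0.28, adjusted p = 0.0149) and TRAJ49. Those used less were TRAJ35, TRAJ18, TRAJ38, TRAJ11 and TRAJ9, with log2 differences between -1.08 and -0.59. As background, TRAJ segments are numbered downwards along the chromosome from the V side to the constant segment, and TRAJ18 is the J segment of the invariant natural killer T cell alpha chain, whose V segment is TRAV11. In the order of the reference table, the 4 used more lay among the first 13 of 60 TRAJ genes and the 5 used less at place 24 or later. The median log2 difference was 0.10 over the 21 segments nearer the V side and -0.26 over the 20 farther ones, with 12 and 5 of them above 0. Spearman's correlation of place with log2 difference was -0.57 over the 41 segments, all measured in the same 23 libraries, and -0.59 with near copies dropped. With near copies dropped, 8 segments (19.5%) were called. All 4 used more were kept, and of the 5 used less only TRAJ18 was kept (log2 difference -0.64, adjusted p = 0.0149). The other families compared here include TRAV11, with 122 entries, and its part in the TRAJ18 difference was not tested. TRAJ35, TRAJ9, TRAJ38 and TRAJ11 no longer passed, with adjusted p between 0.0604 and 0.213. TRAJ50 and TRAJ40, used more, and TRAJ17, used less, were called in addition.

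**Figure D5:**
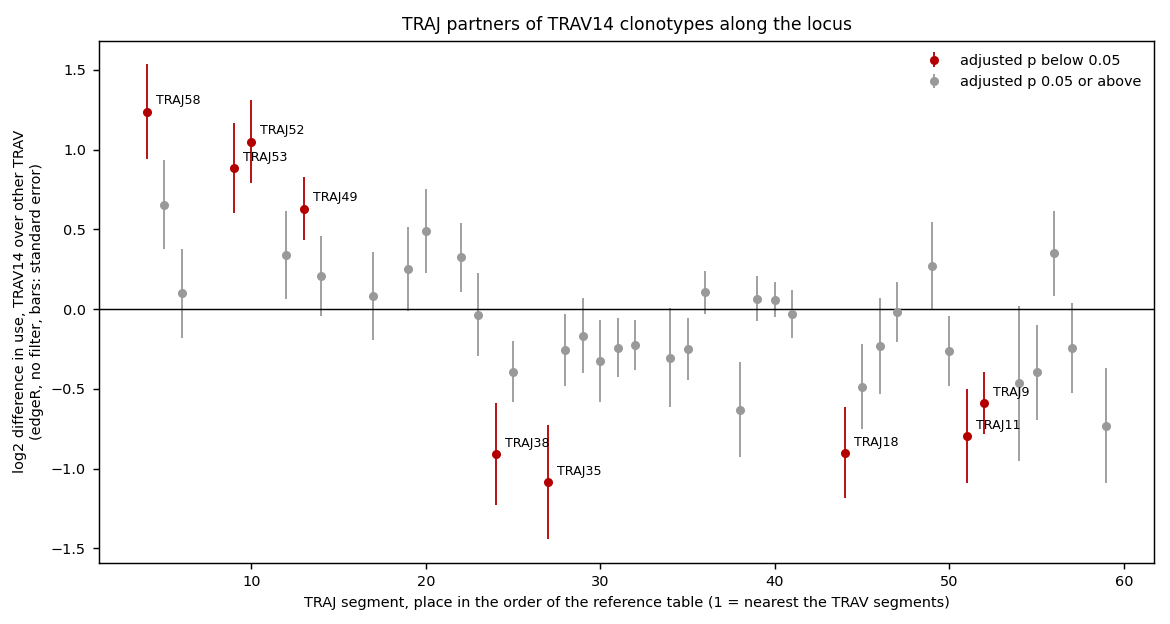
Log2 difference in use of each of 41 TRAJ segments between TRAV14 clonotypes and clonotypes of other TRAV families (edgeR without the filter on low counts, bars show the standard error), against the place of the segment in the reference order. The 4 called segments above 0 lie among the first 13 places, and the 5 called below 0 lie at place 24 or later, of which 4 are no longer called with near copies dropped.

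Weighted by counts, the leading J partner differed between most groups. The J segment with the highest mean share of TRAV14 counts was TRAJ58 with 18.8% in combination D11, TRAJ23 with 16.2% in combination D4, TRAJ39 with 10.03% in trametinib D11 and TRAJ5 with 20.4% in trametinib D4. It was TRAJ13 with 27.8% in BGB-283 D11, TRAJ42 with 26.1% in BGB-283 D4, TRAJ12 with 17.7% in control D11 and TRAJ5 with 26.1% in control D4. Each mean is over 2 or 3 libraries, so 1 library can set it. The highest share in any library was 81.5% for TRAJ13, 77.7% for TRAJ42, 66.1% for TRAJ5 and 53.1% for TRAJ58. For TRAJ12, TRAJ39 and TRAJ23 the highest shares were 35.2, 20.7 and 18.2%. TRAJ27, the J of the large clone in combination D4, came second there with 15.2%. Counted by clonotype, TRAJ22 ranked among the first 3 in all 8 groups.

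The CDR3 of TRAV14 clonotypes averaged 13.51 ± 0.161 residues and that of other TRA clonotypes 13.60 ± 0.0570 (SD, n = 23 libraries). The difference was -0.0899 residues, and TRAV14 was the shorter in 17 of 23 libraries (two-sided permutation test by 100000 sign flips, p = 0.0179). The most common length was 14 residues in both, in 33.2% of TRAV14 and 30.1% of other clonotypes, and lengths of 16 residues made up 5.77% and 6.70%. With clonotypes weighted by their counts the difference was 0.122 residues (permutation p = 0.259).

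By the share of TRA counts over 23 libraries, the families whose pattern was most like that of TRAV14 were TRAV12, TRAV21 and TRAV9, with Spearman correlations of 0.210, 0.186 and 0.0721. These are low, they share the libraries and the total that shares sum to, and they are given as a description.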

How the data were processed

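TCR transcripts of 23 libraries were counted by the authors per chain, V name, J name and CDR3 amino acid sequence, and the deposited table holds these counts unscaled. Per the labels, libraries were made with a QIAGEN QIAseq immune repertoire kit. Per the submitters' processing notes the build was GRCh38, with the aligner and clonotype caller not given in the sources used here. No value lies between 0 and 3, so 0 means listed at 0. Of 64710 entries, 274 with an unresolved residue were left out, 13 of them TRAV14. TRA totals per library ran from 37504 to 524431.

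Counts per TRAV name, counts per family and clonotypes per family were each fitted over all features with edgeR 4.0.16 (quasi-likelihood test, 8 group means, filterByExpr, the library total as size, no TMM factors), with Benjamini-Hochberg adjustment and a threshold of 0.05. A standard error is the log2 difference over the square root of F. The 4 tested contrasts average both days or all treatments. TRAJ use was fitted with TRAV14 and other clonotypes as paired columns of a library. CDR3 length was tested by sign flips over libraries. DESeq2 1.42.0 was an alternative, and the fits of TRAV names (combination over control) and of TRAJ use were tested on simulated data. For names, 7 of 10 changed 16-fold, 8 of 10 changed 256-fold and 1 of 98 unchanged were called, so large changes can be missed. For TRAJ use, simulated with counting error only, 6 of 6 segments changed 2-fold and 1 of 11 unchanged were called.

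Named are every TRAV14 name by range, clones at 5% or more of TRA in any library, the 3 clones in most libraries, TRAJ segments past the threshold, and the 3 families most like TRAV14. TRAJ segments called without the filter and the order along the reference were added after seeing the data. The members and lists were chosen with earlier results of these data known. Replicate numbers were not taken as pairs: correlations of libraries with the same number were all over 0.1 for just 3 of 28 combinations of groups (mean 0.0154). No 2 libraries were alike enough to be copies (highest correlation of log2 name counts 0.923).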

Additional observations from a re-analysis of the deposited data

Results flagged for a closer look

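Groups of 3 libraries are too small to look for values that stand apart, so the libraries of a treatment were taken over both days, in 32 sets of a measure and a treatment. In 7 sets a library lay further from its nearest neighbour than Dixon's 95% limit allows. For independent sets of normally distributed values, chance gives about 1 set in 20. The shares here are skewed and the names add up to the family, so whether 7 exceeds chance was not tested.

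Combination D4 replicate 1 stood apart for 3 names, with TRAV14-3 at 9.05% of TRA counts (0.406 to 2.02% in the other combination libraries), TRAV14-1V14N-1 at 5.38% (1.12 to 2.41%) and TRAV14D-1 at 2.22% (0.223 to 0.923%). Its TRAJ27 clone made up 91.2% of its TRAV14-3 counts. BGB-283 D4 replicate 1 stood apart with TRAV14-3 at 11.4% (0.0973 to 1.30% in the other BGB-283 libraries), of which the TRAJ17 clone was 89.9%.

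TRAV14D-2 stood apart in BGB-283 D4 replicate 2 at 2.72% (0.0199 to 0.455% in the others), of which the TRAJ42 clone was 94.8%, and in control D4 replicate 3 at 0.207% (0 to 0.0254%), where 94.3% of its counts had a larger copy under another TRAV14 name. By clonotypes, trametinib D11 replicate 1 was low, with TRAV14 at 12.7% of TRA clonotypes (15.1 to 16.1% in the other trametinib libraries).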

How the results depend on the processing

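The count of TRAV names called was 0 by edgeR in all 4 tested contrasts and larger under some alternatives. Without the filter on low counts it was 1 for trametinib over control, combination over control and D11 over D4. With DESeq2, also run without that filter, it was 11 for trametinib over control and 13 for combination over control. It was 5 for combination over trametinib and 12 for D11 over D4. Without both shallowest control libraries it was 1 in both contrasts with control. Leaving out 1 library at a time gave 0 to 4 for trametinib over control and 0 to 7 for combination over control, highest without control D4 replicate 3. The cause was not tested.

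TRAV14 family counts never passed the threshold, and the sign of their small log2 differences was not stable. Trametinib over control was -0.16 with TMM factors, -0.14 with DESeq2 and -0.13 to 0.26 over the libraries left out. Combination over control was 0.26 with TMM factors, 0.38 without both shallowest controls and -0.22 to 0.20 over the libraries left out. Combination over trametinib was 0.42 with TMM factors, 0.079 with DESeq2 and -0.25 to 0.077 over the libraries left out. With the replicate block, combination over control was 0.000614, and the block changed no call.

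TRAV14 family clonotypes for trametinib over control were -0.010 with TMM factors, -0.014 without both shallowest controls, -0.056 with near copies dropped and -0.017 to 0.081 over the libraries left out. With near copies dropped, combination passed the threshold against control (-0.25) and trametinib (-0.20). The log2 difference of TRAV14D-2 for combination over trametinib was -0.035 without combination D4 replicate 3, and up to 1.37 over the libraries left out.

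The number of TRAJ segments called was 9 with no filter, 6 with DESeq2 and 0 of 5 tested among clonotypes with 20 or more counts, where fewer could be tested. TRAJ37 had a log2 difference of -0.37 (adjusted p = 0.180), 0.075 with near copies dropped, and it passed without BGB-283 D11 replicate 2 (-0.48, adjusted p = 0.0338). The CDR3 length difference was 0.122 residues when weighted by counts.

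Depth limits the rare names: TRAV14D-2 had 3 and 35 counts in 2 control D4 libraries, and the filter left 15 of 41 TRAJ segments.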
